A study of Homo sapiens with 8 samples.

Results

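Nuclear-encoded subunits of the mitochondrial respiratory chain and ATP synthase were followed in THP-1 foam cells given auranofin or vehicle. Members were the rows of the count table with a symbol of the form NDUFA, NDUFB, NDUFC, NDUFS or NDUFV plus a number, SDHA to SDHD, UQCR, COX4 to COX8 or ATP5, leaving out symbols that end in P plus digits. This gave 87 of 62700 rows, with 37 members in complex I, 4 in complex II, 9 in complex III, 18 in complex IV and 19 in complex V. THP-1 is a human monocytic leukaemia line, and all 8 libraries came from cells that PMA, a phorbol ester, had made into macrophages (50 ng/mL, 72 h) and that were then fed acetylated low-density lipoprotein for 48 h. Of these, 4 libraries (AF) came from cells given auranofin at 0.5 µM, a gold compound that inhibits thioredoxin reductase, and 4 (DMSO) from cells given dimethyl sulfoxide below 0.1% by volume. The sample protocol places drug or vehicle 24 h ahead of the lipoprotein and keeps it on to the end, while the series description places it after loading, so the timing is taken here only as these texts give it. A single time, a single dose and a single line were sampled. No label says that the libraries of a group came from separate cultures, and library names share stems, so p-values measure only how these libraries vary, and that variation may be technical.

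The respiratory chain passes electrons from NADH (complex I) and succinate (complex II) through ubiquinone, complex III and cytochrome c to oxygen at complex IV, and the proton gradient that complexes I, III and IV build drives ATP synthesis at complex V. Complexes I, III, IV and V combine subunits made from nuclear genes, imported from the cytosol, with a few made from mitochondrial DNA, while complex II is wholly nuclear. Macrophages use the chain for ATP and also, depending on their activation, as a source of reactive oxygen species.

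Depth was 19336073 to 32325981 counts per library. AF replicate 1 stood apart, with 34.8% of its counts on ribosomal RNA rows against 0.743% to 0.963% in the other 7 libraries, and with 0.439% of its counts on the 87 members against 0.667% to 0.731%. Counts per 1000000 (CPM) below use TMM-scaled library sizes, which allow for such a shift in composition. The 12 macrophage or myeloid markers each averaged over 1 CPM and summed to 7390 to 8246 CPM in AF and 7029 to 7932 CPM in DMSO. Among them 4 rose (ITGAX by a log2 fold change of 0.69, with ITGAM, CD14 and CTSB) and 3 fell (MRC1 by a log2 fold change of -1.50, with MSR1 and PLIN2) by edgeR. This is a larger share than the 15.4% of all genes tested that were called, although the summed ranges overlap. The markers' part in the members' values was not tested. Of 6 T or B lymphocyte markers 0 averaged over 1 CPM (summed 0.468 to 0.943 CPM in AF, 0.684 to 1.19 CPM in DMSO, MS4A1 at 0 counts), and of 10 fibroblast, endothelial or epithelial markers 2 did, PECAM1 and VWF (summed 300.5 to 328.8 CPM in AF, 316.1 to 326.7 CPM in DMSO, COL1A2 and EPCAM at 0 counts). In bulk RNA, fewer cells of a kind and less RNA per cell cannot be told apart.

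Most nuclear subunit genes differed little between auranofin and vehicle. Of the 79 members that passed the filter on low counts, 2 fell and 0 rose at an adjusted p under 0.05 (edgeR quasi-likelihood test, Benjamini-Hochberg over 17535 genes). This is 2.53% of them, beside 15.4% of all genes tested, of which 7.81% fell and 7.62% rose. The 2 that fell, COX5A and COX6B1, both belong to complex IV, where they make 18.2% of the 11 members tested. CYC1, a complex III subunit that the symbol rule does not take in, also fell (log2 fold change -0.31, edgeR adjusted p = 0.0212). At an unadjusted p under 0.05 the members counted 18 lower and 2 higher, beside 14.8% lower and 14.9% higher of all genes (29.7% in all), and DESeq2 called 10 lower and 1 higher, beside 9.46% lower and 9.02% higher of all genes by that tool (18.5% in all). The 95% interval of the log2 fold change lay within 0.5 of 0 for 73 of 79 members, 92.4%, beside 55.5% of all genes tested. The median standard error was 0.080 on the log2 scale, against 0.111 over all genes.

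Small differences below 0 were the more frequent. The log2 fold change was below 0 in 54 of 79 members, 68.4%, beside 49.2% of all genes. Its median was -0.08 over the members and 0.005 over all genes. By complex the median was -0.12 in complex I, 0.03 in complex II, 0.02 in complex III, -0.12 in complex IV and -0.07 in complex V. The AF and DMSO libraries did not overlap for 10 members, 12.7%, beside 19.5% of all genes (9.68% with AF below and 9.86% with AF above). AF lay below DMSO in 8 of them, namely NDUFS3, NDUFA4, NDUFB9, NDUFA6, COX5A, ATP5F1D, ATP5MC3 and ATP5PF, and above in NDUFB4 and ATP5IF1.

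**Figure D1:**
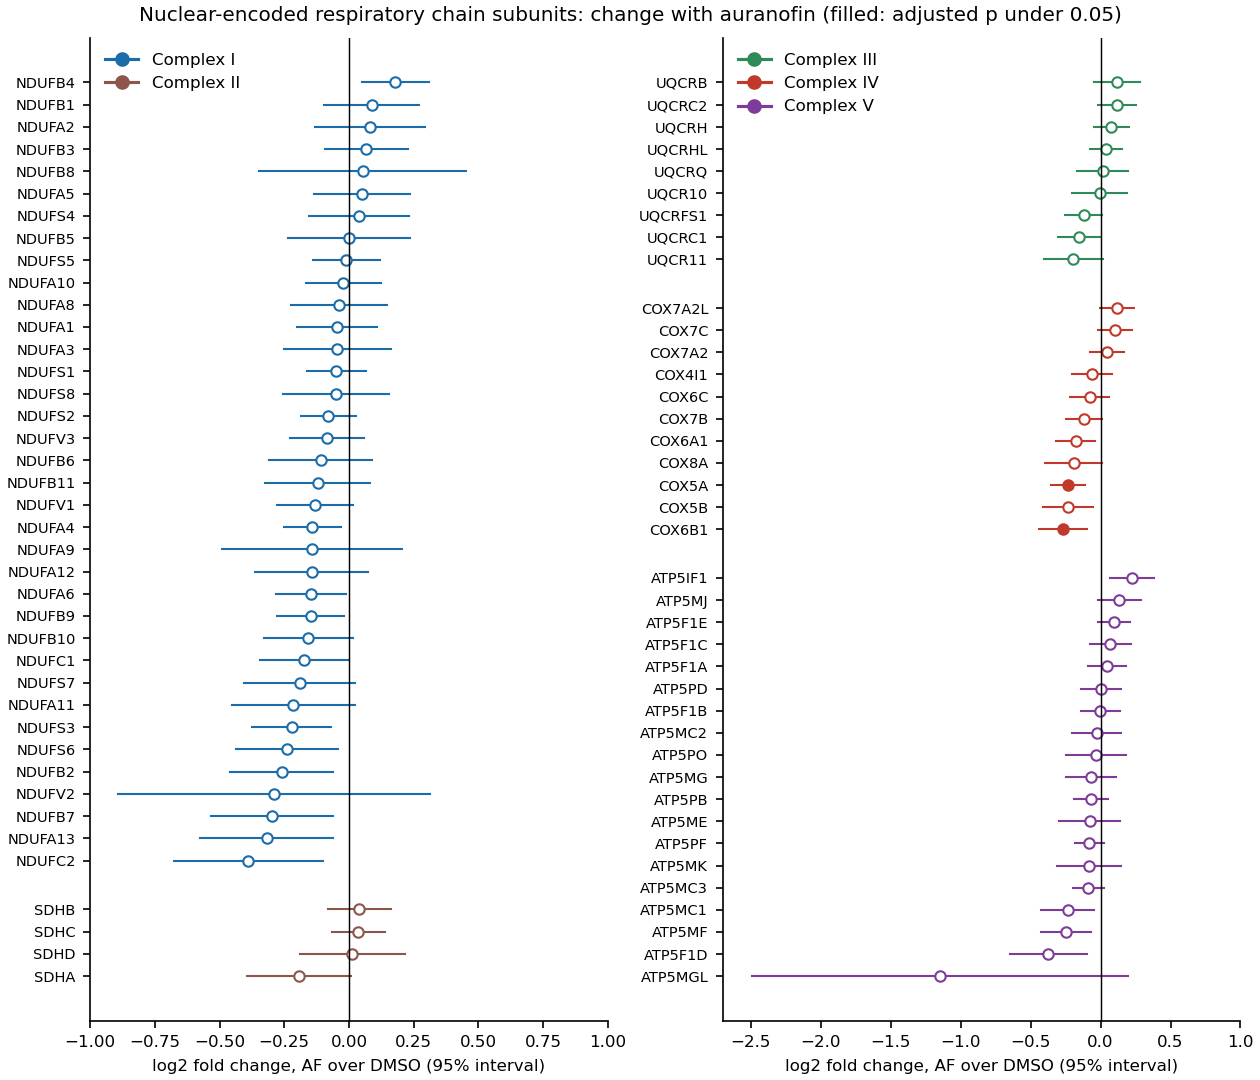
Log2 fold change of AF over DMSO with its 95% interval (x axis) for the 79 members tested, by complex and ordered by value, filled where the edgeR adjusted p was under 0.05. The 2 panels have different x ranges, COX5A and COX6B1 are the 2 filled points, and ATP5MGL at -1.15 has the widest interval.

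The promoters of 4 members are shown because these genes carry the calls or the separation upward: COX5A and COX6B1, the 2 that fell, and NDUFB4 and ATP5IF1, the 2 whose AF libraries all lay above DMSO. Each run is the 250 bases before the gene's RefSeq start (GRCh38.p14), read 5′ to 3′ along the gene. Each also holds bases that GENCODE 29 puts inside the gene, since its starts differ and lie within these windows. Those starts are 74938168 for COX5A, 35648223 for COX6B1, 120596309 for NDUFB4 and 28236109 for ATP5IF1. Capitals mark matches on either strand to 4 motifs of factors known to act at respiratory chain promoters: NRF1 (GCGCA, any base, then GCGC), the ETS family, which includes GABPA (CCGGAAG), YY1 (AAGATGGCG) and the CCAAT box (CCAAT). The windows lie at chr15:74938074-74938323 (minus strand) for COX5A, chr19:35648073-35648322 (plus strand) for COX6B1, chr3:120596086-120596335 (plus strand) for NDUFB4 and chr1:28235874-28236123 (plus strand) for ATP5IF1.
COX5A: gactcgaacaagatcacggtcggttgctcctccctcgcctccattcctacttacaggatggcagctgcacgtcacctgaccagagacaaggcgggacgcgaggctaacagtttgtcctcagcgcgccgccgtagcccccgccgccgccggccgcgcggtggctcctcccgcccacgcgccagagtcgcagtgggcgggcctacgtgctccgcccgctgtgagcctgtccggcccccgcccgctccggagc
COX6B1: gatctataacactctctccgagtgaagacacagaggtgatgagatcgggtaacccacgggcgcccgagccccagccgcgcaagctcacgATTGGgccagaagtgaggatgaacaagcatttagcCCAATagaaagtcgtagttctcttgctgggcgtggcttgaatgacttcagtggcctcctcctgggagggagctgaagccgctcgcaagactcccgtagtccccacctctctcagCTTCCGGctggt
NDUFB4: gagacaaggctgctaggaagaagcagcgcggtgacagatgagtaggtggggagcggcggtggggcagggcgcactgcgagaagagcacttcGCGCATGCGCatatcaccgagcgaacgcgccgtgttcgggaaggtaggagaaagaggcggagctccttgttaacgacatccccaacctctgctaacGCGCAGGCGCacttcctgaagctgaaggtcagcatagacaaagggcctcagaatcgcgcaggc
ATP5IF1: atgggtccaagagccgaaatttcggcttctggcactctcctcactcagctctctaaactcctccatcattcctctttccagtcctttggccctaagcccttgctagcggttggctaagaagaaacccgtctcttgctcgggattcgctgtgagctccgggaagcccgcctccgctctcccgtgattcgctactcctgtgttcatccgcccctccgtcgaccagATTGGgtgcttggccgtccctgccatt

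COX5A held no match to any of the 4 motifs in this window. COX6B1 held an ETS match, read on the opposite strand, that ended 6 bases before the start, and 2 CCAAT matches further up. NDUFB4 held 2 NRF1 matches in the printed bases, the nearer ending 54 bases before the start and the farther reading on both strands. With the 50 bases after the start, its window held 4, each strand counted separately. Not all of these lie within the printed bases. ATP5IF1 held 1 CCAAT match on the opposite strand. Over the 82 windows of 69 members in the RefSeq table (250 bases before to 50 after a start), the NRF1 motif was present in 20.7%, against 5.78% of all 35116 windows. The ETS motif was present in 26.8% of member windows against 10.3% of all, YY1 in 12.2% against 1.75%, and CCAAT in 35.4% against 34.6%. The median GC content of the windows was 59.67% for members and 58.67% for all. These are matches of letters, not sites shown to be bound.

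Complex I takes electrons from NADH and pumps protons. Of its 37 members 36 were tested and 0 were called by edgeR, with 10 lower and 1 higher at an unadjusted p under 0.05 and 6 called by DESeq2. The shares of all genes were 15.4% by edgeR, 29.7% at that unadjusted p and 18.5% by DESeq2. The log2 fold change was below 0 in 28 of 36. All 7 nuclear core subunits, which carry the flavin, the iron-sulfur clusters and the ubiquinone site, lay below 0. They ranged from -0.29 to -0.05 with a median of -0.13. The lowest, NDUFV2, had only 189 counts over the 8 libraries, and its log2 fold change was 0.14 when summed with its pseudogene row. The numbers of complex I members take in NDUFA4, which the symbol rule places here although its product is found in complex IV. Without it, the 28 accessory subunits tested had 20 below 0 and a median of -0.10. The accessory subunit NDUFAB1, which the symbol rule does not take in, had a log2 fold change of -0.10 (edgeR adjusted p = 0.409).

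NDUFS3, a core subunit of the arm that holds the iron-sulfur clusters, had the smallest p in complex I. It shares 19.65% of its exon bases on the same strand with PTPMT1, so its counts are uncertain. In AF its level was 44.3, 39.9, 39.7 and 37.9 CPM, against 44.4, 47.8, 51.1 and 45.2 CPM in DMSO, listed here and elsewhere in the order of the replicate numbers. The groups did not overlap, but AF replicate 1 and DMSO replicate 1 were nearly level. The log2 fold change was -0.22 ± 0.07 (SE, edgeR adjusted p = 0.0507), short of the threshold. It passed in 5 of 18 alternative fits, among them DESeq2 (adjusted p = 0.0291), libraries of a shared name stem summed (edgeR adjusted p = 0.0407) and 1 of the 8 that left out a library, that without AF replicate 1.

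NDUFB4, an accessory subunit of the membrane arm, was among the 8 complex I members above 0. It was at 73.0, 76.6, 72.8 and 70.0 CPM in AF and 69.6, 59.7, 67.3 and 61.5 CPM in DMSO. The lowest AF library stood just over the highest DMSO library. The log2 fold change was 0.18 ± 0.06 (SE, edgeR adjusted p = 0.0595).

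NDUFC2, a membrane-arm accessory subunit, had the largest difference in complex I, from few counts. Its levels were 8.17, 6.61, 7.45 and 9.71 CPM in AF and 10.8, 8.73, 9.62 and 12.6 CPM in DMSO, with overlap. The log2 fold change was -0.39 ± 0.13 (SE, edgeR adjusted p = 0.0642). NDUFC2 shares 16.25% of its exon bases on the same strand with the read-through gene NDUFC2-KCTD14, so its counts are uncertain.

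The accessory subunits NDUFB7 and NDUFA13 (also known as GRIM-19) had log2 fold changes of -0.30 and -0.32 (edgeR adjusted p = 0.0851 and 0.0892). NDUFA13 was at 23.1, 23.4, 18.5 and 18.4 CPM in AF and 24.4, 28.7, 28.9 and 21.9 CPM in DMSO, so the groups overlapped through DMSO replicate 4. NDUFA13 shares 20.97% of its exon bases on the same strand with YJEFN3 and AC011448.1, so its counts are uncertain too. NDUFB9 and NDUFA6, also accessory subunits, did not overlap between groups, with log2 fold changes of -0.15 each (edgeR adjusted p = 0.115 and 0.135). The 8 complex I members above 0 reached at most 0.18 (NDUFB4).

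Several complex I genes were counted thinly or beside a copy, which limits them. NDUFV2, a core subunit, had 189 counts over the 8 libraries, while the row of its pseudogene NDUFV2P1 had 2050. Its level averaged 0.823 ± 0.134 CPM in AF and 1.02 ± 0.328 CPM in DMSO (SD, n = 4 each), and its 95% interval ran from -0.89 to 0.31, while the sum of gene and pseudogene row gave a log2 fold change of 0.14. The accessory subunits NDUFA9 and NDUFB8 averaged 3.62 and 4.57 CPM in AF and 3.99 and 4.45 CPM in DMSO. NDUFA7 had 16 counts in all and was not tested. Other genes on the same strand share 28.44% of the exon bases of NDUFV2 and 10.61% of those of NDUFA9. For NDUFB8 the share was 33.77% and for NDUFA7 32.27%, so the counts of these genes are uncertain.

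Complex II oxidises succinate and is part of the citric acid cycle. Its 4 members were all tested, and 0 were called by edgeR or DESeq2 or had an unadjusted p under 0.05. Over all genes these shares were 15.4%, 18.5% and 29.7% in the same order. The summed level was 253 ± 7.83 CPM in AF and 250 ± 1.73 CPM in DMSO (SD, n = 4 each). SDHC, a membrane anchor, was at 123, 124, 125 and 120 CPM in AF and 121, 116, 123 and 120 CPM in DMSO. These libraries overlapped throughout, and its log2 fold change was 0.04 with a 95% interval of -0.07 to 0.14. SDHA, the flavoprotein, had the largest difference in the complex, with 12.5, 13.6, 11.0 and 12.8 CPM in AF against 13.6, 16.0, 14.1 and 13.4 CPM in DMSO. Its log2 fold change was -0.19 ± 0.10 (SE, edgeR adjusted p = 0.190), and rows named as its pseudogenes held 70.0% as many counts as SDHA itself.

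Complex III passes electrons from ubiquinol to cytochrome c. Of its 9 members 0 were called by edgeR or DESeq2, and UQCRC1 alone had an unadjusted p under 0.05. Over all genes 15.4% were called by edgeR and 18.5% by DESeq2, and 29.7% passed at that unadjusted p. The summed level was 1138 ± 19.6 CPM in AF and 1103 ± 75.1 CPM in DMSO (SD, n = 4 each), with overlap. UQCRC1, a large matrix-side core protein, was at 117, 117, 106 and 111 CPM in AF and 120, 140, 132 and 110 CPM in DMSO. DMSO replicate 4 lay inside the AF range, and the log2 fold change was -0.16 ± 0.07 (SE, edgeR adjusted p = 0.149). Its partner UQCRC2 had a log2 fold change of 0.12 ± 0.06 (SE, edgeR adjusted p = 0.246).

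UQCR11, a small subunit, had the largest difference in complex III, at -0.19 ± 0.10 (SE, edgeR adjusted p = 0.203). UQCRH, the hinge protein that helps dock cytochrome c, was at 306, 309, 299 and 293 CPM in AF and 286, 279, 304 and 275 CPM in DMSO. UQCRHL, a near copy of UQCRH on chromosome 1, was at 63.2, 64.0, 67.4 and 61.8 CPM in AF and 63.7, 59.2, 64.6 and 62.4 CPM in DMSO. Both sets overlapped, with log2 fold changes of 0.08 and 0.04, and reads could be split between the copies, so their levels are uncertain. With library totals alone the sign of UQCRH and UQCRHL turned, to -0.07 and -0.11.

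Complex IV reduces oxygen to water. Of its 18 members 11 were tested, 2 fell and 0 rose, with 4 lower and 0 higher at an unadjusted p under 0.05 and 2 called by DESeq2. The edgeR calls were 18.2% of the 11, beside 15.4% of all genes. Over all genes, 29.7% passed at that unadjusted p and 18.5% by DESeq2. COX5A, a matrix-side subunit (GENCODE 29 on GRCh38, chr15:74919791-74938168, minus strand), was at 83.3, 86.0, 79.3 and 75.3 CPM in AF, against 96.5, 98.4, 93.9 and 91.8 CPM in DMSO. Every AF library lay below every DMSO library. COX5A averaged 81.0 ± 4.69 CPM in AF and 95.1 ± 2.91 CPM in DMSO (SD, n = 4 each), a log2 fold change of -0.23 ± 0.06 (SE, edgeR adjusted p = 0.0114). It kept its call without any single library, and lost it with library totals alone (-0.39, edgeR adjusted p = 0.213), where the median of all genes sat at -0.14. COX5A also lost it with replicates 1 and 4 of each group alone (-0.25, edgeR adjusted p = 0.354).

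COX6B1 (chr19:35648223-35658861, plus strand) encodes a subunit on the intermembrane-space side, near the cytochrome c site. It was at 128, 131, 123 and 117 CPM in AF, against 136, 158, 176 and 130 CPM in DMSO. The DMSO libraries spread widely, and DMSO replicate 4 lay just under AF replicate 2. COX6B1 averaged 125 ± 6.18 CPM in AF and 150.2 ± 20.9 CPM in DMSO (SD, n = 4 each), a log2 fold change of -0.27 ± 0.08 (SE, edgeR adjusted p = 0.0373). The call was lost without AF replicate 3 (edgeR adjusted p = 0.0907), AF replicate 4 (0.0657), DMSO replicate 2 (0.105) or DMSO replicate 3 (0.124), and with library totals alone (0.164). Replicates 1 and 4 of each group alone lost it too (edgeR adjusted p = 0.625). Neither COX5A nor COX6B1 shares exon bases with another gene in GENCODE 29.

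**Figure D2:**
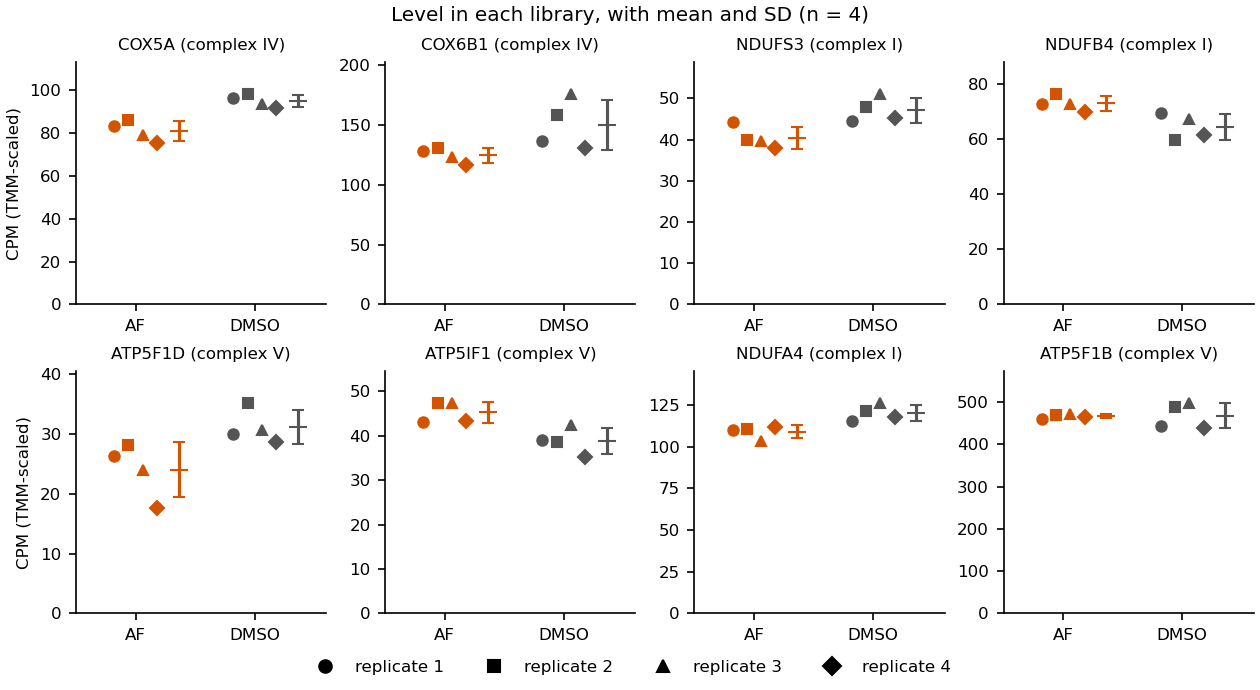
CPM with TMM-scaled library sizes (y axis from 0) in each AF and DMSO library for 8 members, with a marker shape for each replicate number and mean and SD (n = 4) to the right. COX5A shows AF at 75.3 to 86.0 CPM below DMSO at 91.8 to 98.4 CPM, COX6B1 overlaps through DMSO replicate 4, and ATP5F1B shows no shift.

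The other complex IV genes differed less or did not pass. COX5B, the zinc-binding matrix subunit, was at 79.9, 74.7, 74.2 and 60.5 CPM in AF and 85.8, 89.3, 91.3 and 73.6 CPM in DMSO, a log2 fold change of -0.23 (edgeR adjusted p = 0.0741). COX6A1, the broadly expressed isoform of its subunit, had -0.18 (0.0848 by the same test), and pseudogene rows held 36.8% as many counts. COX8A, the broad isoform of the smallest subunit, had -0.19 and COX7B -0.12. COX8A shares 34.52% of its exon bases on the same strand with AP000721.1, so its counts are uncertain. NDUFA4, grouped with complex I by its name but found in complex IV, was at 110, 111, 103 and 112 CPM in AF and 115, 121, 126 and 118 CPM in DMSO. Its groups did not overlap, and the log2 fold change was -0.14 ± 0.05 (SE, edgeR adjusted p = 0.0827).

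Isoforms of complex IV subunits differed widely in level. COX4I1, the broad form of the subunit, was at 246, 246, 231 and 221 CPM in AF and 237, 267, 259 and 222 CPM in DMSO, while the lung-enriched COX4I2 had 0 counts in every library. The heart and muscle form COX6A2 and the testis form COX7B2 also had 0 counts in every library, which allows up to 0.0889 to 0.159 CPM by library (3 counts, counting error only). The testis forms COX6B2 and COX8C, the muscle form COX7A1 and the row COX8BP, a pseudogene that the rule retained, averaged 0.008 to 0.116 CPM in AF and 0.017 to 0.084 CPM in DMSO. COX7A2, the broad form, was at 159, 167, 156 and 153 CPM in AF and 148, 168, 150 and 149 CPM in DMSO, with a log2 fold change of 0.04. COX7A2L, which helps join complexes into supercomplexes, was at 84.0, 88.9, 89.8 and 91.7 CPM in AF and 84.0, 74.8, 84.0 and 84.2 CPM in DMSO. Its log2 fold change was 0.12 ± 0.06 (SE, edgeR adjusted p = 0.184). Library totals alone turned COX7A2 and COX7A2L to -0.11 and -0.03.

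Complex V is the ATP synthase, a rotary F1 head on a membrane-bound ring. All 19 members were tested and 0 were called by edgeR, with 3 lower and 1 higher at an unadjusted p under 0.05 and 3 called by DESeq2. The shares of all genes were 15.4% by edgeR, 29.7% at that unadjusted p and 18.5% by DESeq2. The summed level was 2187 ± 19.7 CPM in AF and 2211 ± 131 CPM in DMSO (SD, n = 4 each). ATP5F1B, the catalytic subunit and the member with the highest CPM, was at 460, 471, 472 and 466 CPM in AF and 445, 488, 499 and 440 CPM in DMSO. The AF libraries all sat inside the DMSO range, and the log2 fold change was -0.002 with a 95% interval of -0.14 to 0.14.

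ATP5F1D, a subunit of the central stalk, had the largest difference among the well-counted members of complex V. It was at 26.3, 28.1, 24.0 and 17.6 CPM in AF, against 30.0, 35.2, 30.6 and 28.7 CPM in DMSO. AF replicate 4 was the lowest by far and the groups did not overlap. The log2 fold change was -0.37 ± 0.13 (SE, edgeR adjusted p = 0.0635). The other 4 members of the F1 head and central stalk ranged from -0.002 to 0.10, so the median of the 5 was 0.05.

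ATP5IF1 encodes the inhibitor that stops the synthase from running backwards and splitting ATP. It was at 43.0, 47.3, 47.5 and 43.4 CPM in AF and 39.1, 38.5, 42.4 and 35.3 CPM in DMSO. Every AF library exceeded every DMSO library, by the least between AF replicate 1 and DMSO replicate 3. Its log2 fold change of 0.22 ± 0.07 was the highest of the 79 members (SE, edgeR adjusted p = 0.0551). It passed in 5 of 18 alternative fits, among them DESeq2 (adjusted p = 0.0293) and libraries of a shared name stem summed (edgeR adjusted p = 0.0323). Of the 8 that left out a library it passed in 1, that without AF replicate 4. Other members short of the threshold passed in as many or more fits. These were ATP5MF in 7, ATP5F1D, COX5B and NDUFA13 in 6 each, and NDUFS3, NDUFB7 and NDUFC2 in 5 each.

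The 3 genes for the identical c-ring subunit all lay below 0. ATP5MC1 had -0.24 ± 0.09 (edgeR adjusted p = 0.0903), with 42.6, 43.6, 42.0 and 39.8 CPM in AF and 45.5, 52.9, 57.8 and 41.7 CPM in DMSO. ATP5MC3 had -0.09, with 119, 116, 116 and 116 CPM in AF and 120, 124, 134 and 119 CPM in DMSO, narrowly without overlap. ATP5MC2, the one with most CPM, had -0.03, and its sign turned without AF replicate 4, DMSO replicate 2 or DMSO replicate 3 (0.009 to 0.04).

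Among the remaining complex V genes the 4 peripheral stalk subunits ranged from -0.08 to 0.005. Of these ATP5PF stood at 64.0, 65.1, 63.9 and 66.8 CPM in AF and 69.9, 68.2, 68.5 and 67.8 CPM in DMSO, without overlap, at -0.08 (edgeR adjusted p = 0.304). The 5 other membrane subunits ranged from -0.24 for ATP5MF (edgeR adjusted p = 0.0626) to 0.13 for ATP5MJ. ATP5MGL, a paralog of the membrane subunit gene ATP5MG, had at most 22 counts in a library and a log2 fold change of -1.15 ± 0.63 (SE, edgeR adjusted p = 0.239).

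Per kilobase of exon (GENCODE 29, all exons of a gene merged), the highest levels were those of UQCRH, with 214 CPM per kb in AF and 203 in DMSO, and ATP5F1B, with 201.2 in AF and 201.5 in DMSO. COX8A followed with 149 in AF and 170 in DMSO and COX6B1 with 133 in AF and 160.4 in DMSO. This order depends on the merged length, which takes in every annotated exon. ATP5F1A, at 377 CPM in AF over 10908 merged bases, came to 34.5 CPM per kb. The counts of UQCRH and COX8A are uncertain, as given above. By mean CPM, 18 members reached 100, 56 lay between 10 and 100, 3 between 1 and 10, and 10 below 1.

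The nuclear members were set beside the 13 protein-coding genes of the mitochondrial genome, whose products join them in the same complexes. Summed, the 87 nuclear genes gave 6469, 6497, 6347 and 6380 CPM in AF and 6314, 6761, 7001 and 6247 CPM in DMSO, so AF sat inside the DMSO range at 97.6% of its mean. The 13 mitochondrial genes gave 16210, 17377, 16708 and 19078 CPM in AF and 19723, 22916, 24087 and 20523 CPM in DMSO, and every AF library lay below every DMSO library at 79.5% of the mean. The ratio of mitochondrial to nuclear sums, which does not depend on library scaling, was 2.51, 2.67, 2.63 and 2.99 in AF, against 3.12, 3.39, 3.44 and 3.29 in DMSO. Its mean was 2.70 ± 0.206 in AF and 3.31 ± 0.140 in DMSO (SD, n = 4 each), without overlap.

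The ratio differed by complex in how far the groups stood apart. In complex III, where MT-CYB is the mitochondrial member, it was 0.453 ± 0.0283 in AF and 0.779 ± 0.0354 in DMSO. In complex I it was 4.58 ± 0.447 in AF and 5.59 ± 0.228 in DMSO, and in complex V 0.475 ± 0.0311 in AF and 0.586 ± 0.0233 in DMSO, each without overlap. In complex IV it was 6.86 ± 0.671 in AF and 7.72 ± 0.462 in DMSO (SD, n = 4 each throughout), with overlap.

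**Figure D3:**
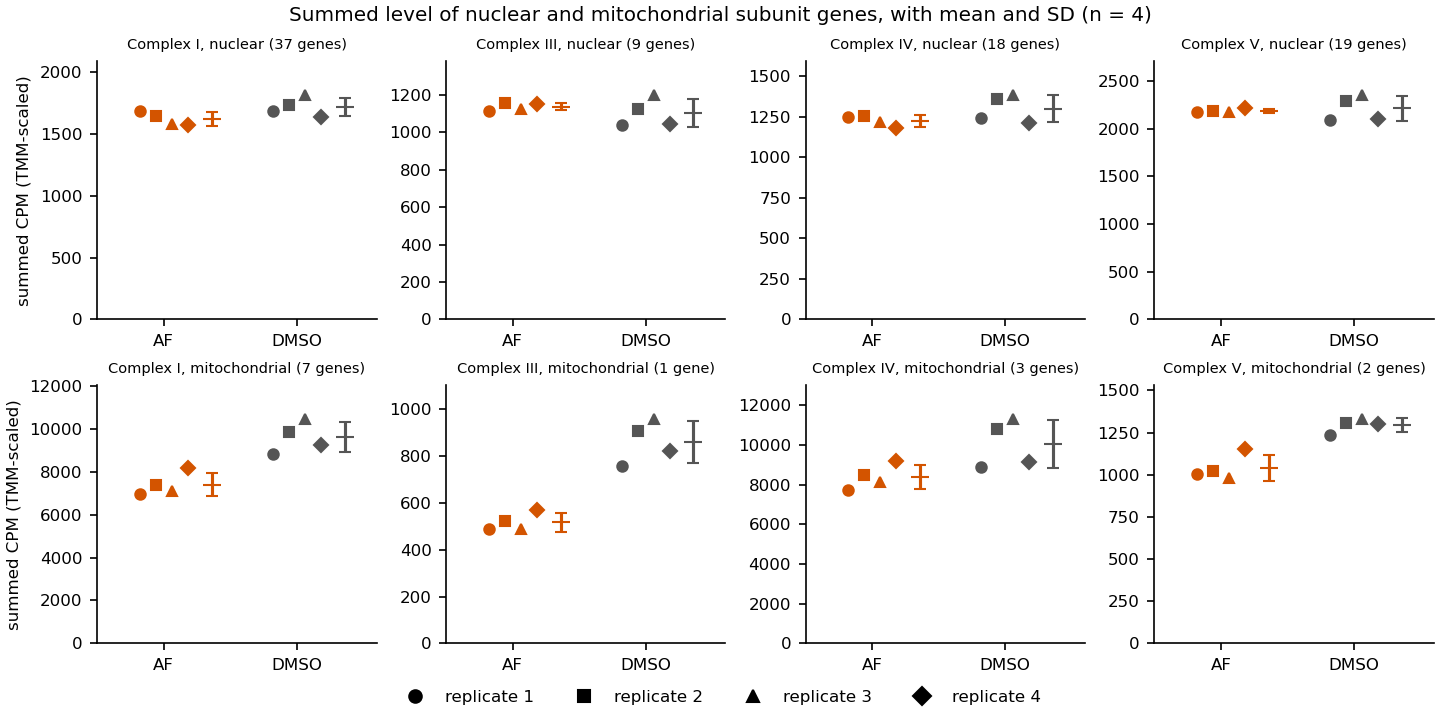
Summed CPM with TMM-scaled library sizes (y axes from 0) of the nuclear members (upper panels) and of the mitochondrial genes (lower panels) of complexes I, III, IV and V in each AF and DMSO library, with mean and SD (n = 4). The nuclear sums overlap in all 4 complexes, while the mitochondrial sums of AF lie below DMSO in complexes I, III and V.

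Genes that build, feed or regulate the chain were read from lists of textbook members. Outside the mitochondrial genome these lists showed 4 genes higher and 11 lower with auranofin by edgeR, 10.2% of their 147 genes, beside 15.4% of all genes tested, so the lists as a whole did not exceed the background. Of 18 complex I assembly factors TIMMDC1 rose and NDUFAF8 fell, of 9 for complex III UQCC2 fell, and of 4 for complex II, 28 for complex IV and 6 for complex V 0 passed. At an unadjusted p under 0.05 those last 3 lists counted 1, 2 and 2 genes, and DESeq2 called 0, 1 and 0. Over all genes the shares were 29.7% at that unadjusted p and 18.5% by DESeq2. UQCC2, an assembly factor for cytochrome b, was at 40.3, 36.9, 34.6 and 30.1 CPM in AF and 50.0, 44.8, 44.5 and 42.1 CPM in DMSO. It did not overlap between groups, and its log2 fold change was -0.36 ± 0.09 (SE, edgeR adjusted p = 0.0165). TIMMDC1 (0.17, edgeR adjusted p = 0.0319) and NDUFAF8 (-0.49, 0.0475 by the same test) lost their calls in most fits that left out 1 library.

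Of 12 electron carriers and entry enzymes SQOR rose while CYCS and CYC1 fell. CYCS, cytochrome c, was at 106, 101, 104 and 108 CPM in AF and 124, 122, 127 and 134 CPM in DMSO, with no overlap and a log2 fold change of -0.28 ± 0.05 (SE, edgeR adjusted p = 0.00257). CYC1, the cytochrome c1 subunit of complex III, which the symbol rule does not take in, had -0.31 ± 0.08 (SE, edgeR adjusted p = 0.0212), with 95.9, 102, 91.5 and 78.4 CPM in AF and 113, 126, 116 and 99.0 CPM in DMSO. SQOR, which passes electrons from sulfide to ubiquinone, was at 56.6, 62.7, 58.9 and 61.5 CPM in AF and 49.6, 51.1, 49.0 and 48.3 CPM in DMSO, a log2 fold change of 0.28 (edgeR adjusted p = 0.00469). Of 13 genes of coenzyme Q synthesis COQ10B, a coenzyme Q-binding protein, rose (0.40, edgeR adjusted p = 0.0111), while the pathway enzymes COQ7 (-0.40, 0.0228) and COQ3 (-0.54, 0.0419) fell.

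Of 14 regulators HIF1A rose and ESRRA fell. ESRRA, a nuclear receptor that drives many respiratory chain genes, was at 30.8, 29.2, 28.8 and 26.3 CPM in AF and 38.0, 39.9, 35.3 and 35.8 CPM in DMSO, without overlap (log2 fold change -0.37 ± 0.09 SE, edgeR adjusted p = 0.00884). HIF1A, the oxygen-regulated factor that favours glycolysis, was at 283, 269, 288 and 340 CPM in AF and 222, 192, 203 and 250.3 CPM in DMSO (0.45 ± 0.09 SE, edgeR adjusted p = 0.00363). The coactivators PPARGC1A and PPARGC1B had log2 fold changes of -0.15 and -0.29, and NRF1, GABPA and TFAM had 0.06, -0.08 and 0.13, with edgeR adjusted p from 0.130 to 0.729. Of 19 citric acid cycle enzymes IDH2, the NADPH-forming mitochondrial isocitrate dehydrogenase, fell (-0.44, edgeR adjusted p = 0.001), and of 24 genes of mitochondrial structure and import the outer-membrane import pore TOMM40 (-0.38), its receptor TOMM22 (-0.24) and prohibitin PHB1 (-0.32) fell. With library totals alone these lists showed 0 genes higher and 3 lower, beside 5.04% of all genes called in that fit.

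The members' fold changes were lower at higher GC content of the transcript. Across the 74 members with a mean of at least 10 CPM, log2 fold change and GC content of the longest coding transcript had Pearson r = -0.59 and Spearman rho = -0.54, and across all 79 tested they had -0.32 and -0.43. All points share the same 8 libraries. Across 12939 protein-coding genes tested the same measures were -0.14 and -0.19. All 16 members over 55% GC lay below 0, with a median of -0.17, beside 60.3% of protein-coding genes in that range (median -0.06). Of the 38 members with 45% to 55% GC 27 lay below 0, and of the 25 under 45% GC 11 did (median 0.01). ATP5F1D (69.61% GC), NDUFB7 and NDUFA13 stood at the GC-rich end, and NDUFB4 (41.73%) at the other, while COX5A (47.95%) and ATP5IF1 (49.87%) lay in the middle.

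**Figure D4:**
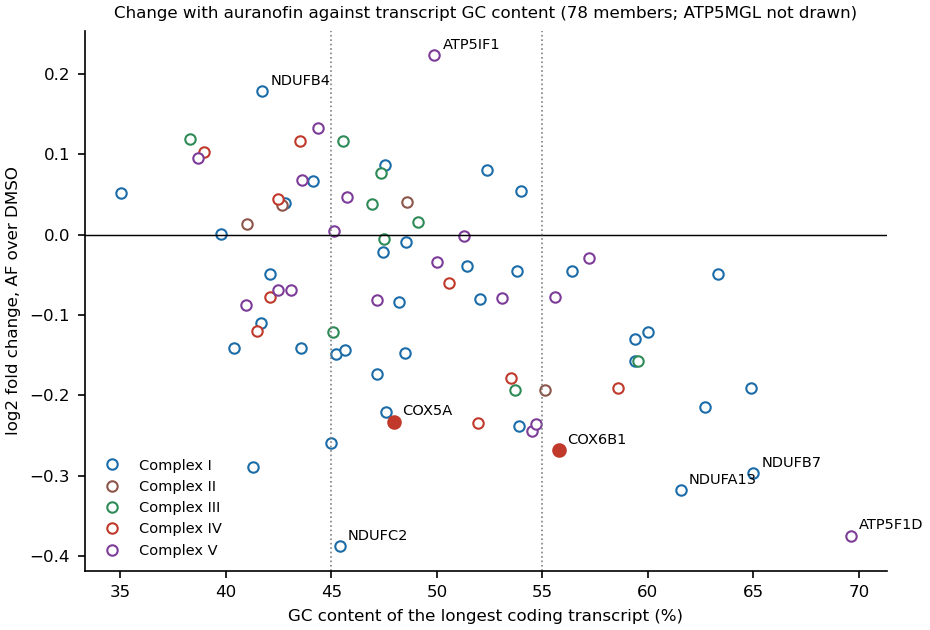
GC content of the longest coding transcript (x axis, %) and log2 fold change of AF over DMSO (y axis) for 78 members coloured by complex, filled where the edgeR adjusted p was under 0.05, with dotted lines at 45% and 55%. ATP5MGL is not drawn, and the 16 members over 55% GC all lie below 0.

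Libraries within a group differed along the same axis. In DMSO, replicates 2 and 3 minus replicates 1 and 4 correlated with GC content across the 79 members at r = 0.35 and rho = 0.52, and in AF at r = 0.40 and rho = 0.39. Across the 12939 protein-coding genes the same measures were 0.32 and 0.42 in DMSO and 0.34 and 0.43 in AF, so this was not limited to the members. No label gives this division of the libraries, which was seen in these same counts. These correlations and the fits below therefore describe the division and are no separate support for it. With replicates 2 and 3 of each group alone, 34 of 78 members were lower and 3 higher by edgeR, beside 15% lower and 14.7% higher of all genes tested (29.7% in all), and the members' median was -0.14. With replicates 1 and 4 alone, 0 of 79 were called, beside 1.2% of all genes (0.55% lower, 0.653% higher), 39 lay below 0 and the median was 0.009. The members' median standard error was 0.069 in the fit of replicates 2 and 3 and 0.124 in that of replicates 1 and 4.

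COX5A had log2 fold changes of -0.22 in replicates 2 and 3 and -0.25 in replicates 1 and 4, close to each other. By edgeR it was called in replicates 2 and 3 (adjusted p = 0.00392) and not in replicates 1 and 4 (0.354). COX6B1 had -0.39 and -0.13 in the same order, and UQCR11 -0.37 and -0.01. ATP5IF1 had 0.23 and 0.21, and NDUFB4 0.24 and 0.12. The difference between the divisions was not tested, nor was the part of GC content in any result.

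**Figure D5:**
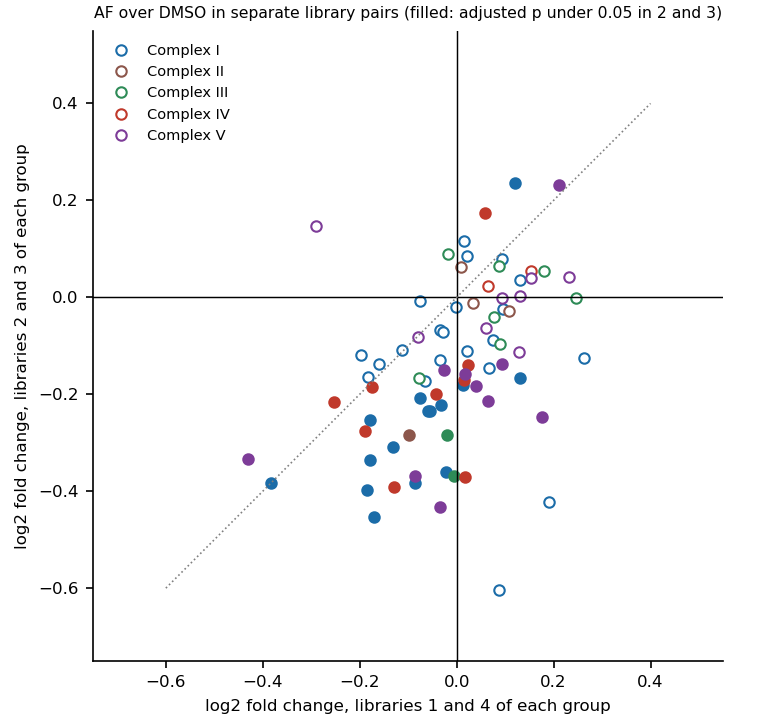
Log2 fold change of AF over DMSO in replicates 1 and 4 of each group (x axis) and in replicates 2 and 3 (y axis) for 78 members by complex, filled where the edgeR adjusted p in replicates 2 and 3 was under 0.05, with the line of equal values dotted. Of the 37 filled points 34 lie below 0 on the y axis.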

How the data were processed

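Poly-A RNA of 8 libraries was analysed, 4 AF and 4 DMSO. The authors deposited 1 table of raw counts per gene. Reads had been processed with STAR 2.6.1d, featureCounts, Subread 1.6.3 and GRCh38, per the submitters' processing notes. The libraries were stranded and made from 250 ng of total RNA, per the labels' protocols. Which annotation, strand setting and rule for multi-mapped reads applied was not given in the sources used here, so values of paralogs, pseudogenes and overlapping genes are uncertain. Columns were matched to samples by title.

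The deposited counts were fitted with edgeR 4.0.16 in R 4.3.3 over the whole table: filterByExpr defaults, TMM, glmQLFit and glmQLFTest, two-sided, Benjamini-Hochberg adjustment over 17535 genes and a threshold of 0.05, with all 8 libraries, no block and 6 residual degrees of freedom. Standard errors were taken as the size of a log2 fold change divided by the root of F. Levels in CPM were derived here from these deposited counts. No molecular identifiers are described, so errors and floors of 3 counts cover counting and library spread only.

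The members, gene lists, roles, motifs and named genes were chosen with earlier results of these data known. Named genes were called members, the largest difference per complex, isoform sets, and the called gene with the smallest p in each direction per list, plus 5 regulators. Other members were named after their values were seen. Positions, exon lengths, overlaps and GC content came from GENCODE 29 (86 of 87 members matched, 2 by an older symbol), and promoters from RefSeq (GRCh38.p14). Alternatives were DESeq2 1.42.0, other scalings, no filter on low counts, a replicate block, summed stems, library divisions and leaving out each library. Summing pseudogene rows was added after seeing the data. The library divisions follow a split that was seen in these counts and that no label gives.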

Additional observations from a re-analysis of the deposited data

Results flagged for a closer look

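In each group of 4 libraries, the CPM of every tested member and the summed CPM of each complex were searched for a library far from the other 3 by Dixon's 95% critical value. This marked 9 of 170 groups, and chance marks about 1 in 20. In AF, replicate 3 was low for NDUFA12 (23.6 CPM, the others 28.8 to 29.6) and high for UQCR10 (27.4, the others 26.3 to 26.5). Replicate 4 was low for NDUFA8 (28.0 CPM, the others 31.3 to 31.5), replicate 1 high for ATP5MC3 (119, the others 115.7 to 116.2) and replicate 2 low for ATP5PD (86.0, the others 88.4 to 88.9). In DMSO, replicate 1 was low for UQCRFS1 (53.4 CPM, the others 60.7 to 61.8). Replicate 2 was low for COX7A2L (74.8 CPM, the others 84.0 to 84.2) and high for COX7A2 (168, the others 148 to 149.8), and replicate 3 was high for ATP5MG (62.9, the others 59.7 to 59.8).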

How the results depend on the processing

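COX5A and COX6B1 kept their calls with RLE size factors, with TMM without ribosomal RNA, with no filter on low counts, with DESeq2 and with summed stems. Several fits called more members, and the cause was not tested. No filter on low counts gave 8 members lower (3 in complex I, 2 in complex V), 9.52% of members beside 8.62% of all genes. DESeq2 gave 10 lower and 1 higher (6 in complex I, 3 in complex V), 13.9% beside 18.5%. Summed stems gave 6 lower and 1 higher (1 in complex I, 3 in complex V), 8.86% beside 12.9%. Leaving out 1 library gave 1 to 9 members lower and 0 to 2 higher, with 0 to 5 called in complex I, 0 to 1 in III, 1 to 4 in IV and 0 to 2 in V, and 2 to 7 other pathway genes higher and 5 to 15 lower. Across these fits 1.27% to 11.4% of members were called, beside 8.97% to 16.4% of all genes. Without AF replicate 1, the library rich in ribosomal RNA, 9 members were lower and 0 higher, 11.4% beside 15% of all genes.

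Deviations of same-numbered AF and DMSO libraries correlated at 0.09, 0.13, 0.03 and 0.19, all above 0 but not all above the 0.1 needed here to treat the numbers as pairs, and 6 of 8 libraries correlated best with their own number, a hint from the data and not from the design. With the replicate block 13 members were lower and 2 higher (7 in complex I, 4 in IV, 4 in V), 19% beside 23.9% of all genes, NDUFS3 and ATP5IF1 among them, and 10 other pathway genes were higher and 19 lower.

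With library totals alone, which moved the median of all genes to -0.14, 0 members were called (0 in complex IV), beside 5.04% of all genes. In that fit 0 other pathway genes were higher and 3 lower. The medians were then -0.23 over all members, and -0.27, -0.12, -0.14, -0.26 and -0.21 in complexes I to V. Signs turned for 23 of 79 members, and among the named genes for COX7A2 (-0.11), COX7A2L (-0.027), UQCRH (-0.074), UQCRHL (-0.11), UQCRC2 (-0.023), SDHC (-0.11), NDUFB8 (-0.070), ATP5MJ (-0.010), NRF1 (-0.087) and TFAM (-0.023).

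With replicates 2 and 3 alone, 34 members were lower and 3 higher, 47.4% beside 29.7% of all genes. Those called numbered 15, 1, 2, 9 and 10 in complexes I to V. In the same fit 10 other pathway genes were higher and 30 lower. The medians were -0.14 over all, -0.020 in complex II, -0.041 in III, -0.18 in IV and -0.12 in V. Signs turned for 10 of 78 members, and among the named genes for GABPA (0.043) and NDUFB8 (-0.13). With replicates 1 and 4 alone, 0 members were lower (0 in complex IV), and 0 other pathway genes were higher and 0 lower. Of all genes 1.2% were called in that fit. The medians were then 0.0090 over all, -0.033 in I, 0.078 in III, 0.015 in IV and 0.061 in V. Signs turned for 17 of 79 members, and among the named genes for COX4I1 (0.023), COX8A (0.017), ATP5MC2 (0.093), UQCRHL (-0.018), ATP5F1B (0.061), NDUFV2 (0.087) and NDUFA9 (0.19). ATP5F1B also turned, to 0.00034 with TMM without ribosomal RNA and 0.0024 with no filter on low counts, and NDUFV2 to 0.14 when summed with its pseudogene row.

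Leaving out 1 library moved the median of complex II between -0.039 and 0.040, that of III between -0.028 and 0.056, that of V between -0.075 and -0.0087, ATP5MC2 between -0.083 and 0.037, ATP5F1B between -0.031 and 0.029, NDUFB8 between -0.064 and 0.16 and GABPA between -0.16 and 0.012. With 4 libraries a group, the median standard error of 0.080 log2 limits which differences can be called.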

Other observations

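Counts of members can be split between a gene and its processed copies. Rows named as pseudogenes held 2050 counts over the 8 libraries for NDUFV2, which itself had 189, and for other members they held 70.0% (SDHA), 36.8% (COX6A1), 29.3% (UQCRFS1) and 28.96% (SDHD) of the member's own counts. Members summed with such rows gave 0 higher and 2 lower, COX5A and COX6B1, as without them, and the log2 fold change of NDUFV2 was then 0.14. This summing was chosen after seeing the data.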
